A study of Mus musculus with 14 samples.

Results

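The MHC class II family was followed through bulk RNA sequencing of primary microglia from TIMP2 KO and WT mice, as 10 of the 49315 genes counted. The 10 genes were taken by symbol from the mouse annotation. They were chosen by their place in the class II pathway after the KO and WT values of these libraries were known, H2-Aa among them, so the difference between genotypes is described for them and supports nothing. The 14 libraries came from C57BL/6 mice, 7 from KO pups that lack TIMP2 in every tissue and 7 from WT pups. Each library is a separate isolation from forebrains of 5 pups of both sexes, aged 6 to 7 days, whose CD11b-selected cells were then kept in culture for some days before RNA was taken. The labels name no treatment for either genotype. Pooled pups and cultured cells limit the model: a value is the mean over 5 animals, and it describes microglia outside the brain.

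MHC class II molecules are pairs of an alpha and a beta chain that carry peptides from taken-up proteins to the cell surface, where CD4+ T cells read them. The invariant chain, encoded by Cd74, fills the groove of new molecules and escorts them to the endosome. There H2-M, made of H2-DMa with a beta chain from H2-DMb1 or H2-DMb2, exchanges the remaining fragment of the invariant chain for antigenic peptide, and H2-O, made of H2-Oa and H2-Ob, holds H2-M back. CIITA, the transactivator, binds no DNA itself and is drawn to class II promoters by the factors on their X and Y boxes. In the healthy brain microglia carry little class II, and interferon gamma is its classical inducer through Ciita.

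In these cultures the members were spread over a wide range, with Cd74 and H2-DMb1 far above the chains they serve and Ciita at a few reads per library. Per length, WT microglia held 17.3 ± 3.00 (SD, n = 7) CPM (counts per 1000000 counted reads, scaled between libraries by TMM) per kb of Cd74 and 0.694 ± 0.132 (SD, n = 7) of H2-Ab1. H2-Aa was 1.83-fold higher in KO than in WT, and Cd74, H2-Ab1 and H2-Eb1 were 1.28-fold, 1.27-fold and 1.27-fold higher. With edgeR, 0 of the 8 that could be tested passed across all genes, where 3 of 15700 genes did (0.0191%). DESeq2 called 15 of the 15700 genes, among them H2-Aa (DESeq2 adjusted p = 0.0499). With the replicate block it did not call H2-Aa (DESeq2 adjusted p = 0.228). Within a genotype, H2-Ab1 and H2-Eb1 had r = 0.778 from library to library, a value that passed adjustment with all 14 libraries but not with the replicate number taken out (r = 0.488) or in 8 of the 14 fits that left out a single library, and r of Cd74 with H2-Ab1 was -0.03.

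In the GRCm38 genome, H2-Oa, H2-DMa, H2-DMb2, H2-DMb1, H2-Ob, H2-Ab1, H2-Aa and H2-Eb1 stand in this order within 224 kb of chromosome 17, and all but H2-Aa are read from the plus strand. H2-Aa (ENSMUSG00000036594) is at chr17:34282744-34287823, H2-Ab1 (ENSMUSG00000073421) at chr17:34257689-34269419 and H2-Eb1 (ENSMUSG00000060586) at chr17:34305867-34316674. Ciita (ENSMUSG00000022504) is at chr16:10480059-10528418, and Cd74 is on another chromosome, given with its values.

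Class II promoters are known by an X box, bound by RFX and, in its second part, by CREB, and a Y box, bound by NF-Y. These sequences were read to show what the chromosome 17 genes share in the letters that such factors are known to bind. Promoter sequences of 7 of the 10 members were found in RefSeq (GRCm38.p6, 250 bases before the start of transcription). Each of the following lines ends with TGATTGG, the core of a Y box, in capitals, and the capitals before it mark GCAAC and ATGATGC, short pieces of the first and second part of an X box, where they occur.
H2-Eb1, chr17:34305758-34305812, plus strand: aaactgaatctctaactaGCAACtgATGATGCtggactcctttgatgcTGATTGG
H2-Ob, chr17:34238798-34238852, plus strand: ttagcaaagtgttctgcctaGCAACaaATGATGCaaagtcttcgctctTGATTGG
H2-DMb2, chr17:34145109-34145163, plus strand: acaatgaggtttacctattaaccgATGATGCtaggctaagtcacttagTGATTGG
H2-Aa, chr17:34287867-34287921, minus strand: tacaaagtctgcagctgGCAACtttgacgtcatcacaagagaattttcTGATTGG
H2-Oa, chr17:34092286-34092340, plus strand: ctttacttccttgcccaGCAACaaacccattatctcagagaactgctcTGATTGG

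These 5 genes, which encode classical, accessory and inhibitory chains, thus carry some of the same short words ahead of a Y box core. TGATTGG was in 6 of 8 windows of the members on either strand, against 7.23% of all 32851 RefSeq windows of that length. ATGATGC started 21 to 24 bases before TGATTGG in H2-Eb1, H2-Ob, H2-DMb2 and H2-DMb1, whose stretch is not shown since it lies in an annotated exon. Only 8 of the 32851 windows, 0.0244%, held ATGATGC 10 to 45 bases before TGATTGG on the same strand, and 4 of these 8 belong to members. GCAAC, which is in 29.9% of all windows, started 28 to 31 bases before TGATTGG in H2-Eb1, H2-Ob, H2-Aa and H2-Oa, and 93 of the 32851 windows, 0.283%, held it 10 to 45 bases before TGATTGG. The 2 windows of H2-DMa held no TGATTGG. The 3 words were chosen from textbook boxes after the sequences were seen. GCAAC can share its first letters with the end of either longer word, and a match is a description of letters, not of a bound site.

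The labels were checked first on the deleted gene. Timp2 was at 122 ± 3.14 (SD, n = 7) CPM in KO and at 463 ± 36.8 (SD, n = 7) in WT, with every KO library below every WT library (log2 fold change -1.92, SE 0.0464, edgeR adjusted p = 1.53e-12). Between 38875344 and 48070236 reads were counted per library. The cultures carried their label: the 12 microglial markers summed to between 9233 and 11830 CPM, with Csf1r among the most abundant. Markers of border-associated macrophages, which carry class II at the borders of the brain, summed to 534 to 845 CPM in KO and 481 to 922 CPM in WT, led by Mrc1 and Ms4a7, with Lyve1 under 3 counts on average. Of the other cells that classically carry class II, dendritic cell markers summed to 9.58 to 12.4 CPM (Batf3 and Zbtb46 led, Cd209a was under 3 counts) and B cell markers to 8.26 to 12.2 CPM (Cd79b and Ebf1 led). Astrocyte markers, led by Gfap and Slc1a3, ranged from 29.3 to 136 CPM in KO and from 32.8 to 258 CPM in WT. In bulk RNA, fewer cells with class II and less class II RNA per cell cannot be told apart.

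Levels between genes were compared as CPM per kb of exon sequence. Cd74 led in WT, ahead of H2-DMb1 at 8.03 ± 0.522 (SD, n = 7), and the libraries of these genes overlapped neither with each other nor with those of the next gene. Below them came H2-Ab1 (0.694), H2-DMa (0.535), H2-DMb2 (0.455), H2-Eb1 (0.401), H2-Ob (0.336), H2-Aa (0.166) and H2-Oa (0.132), each with WT libraries that overlapped those of the next in this order. Ciita was lowest, at 0.0167 ± 0.00742 (SD, n = 7), below every WT library of H2-Oa. Averaged over both genotypes, the level of Cd74 was above that of 84.8% of 15666 tested genes, that of H2-DMb1 above 68.5%, that of H2-Ab1 above 28.6% and that of H2-Aa above 13.6%. With the longest transcript as the length, the first 4 genes kept their places and H2-Ob moved from the seventh to the fifth.

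**Figure D1:**
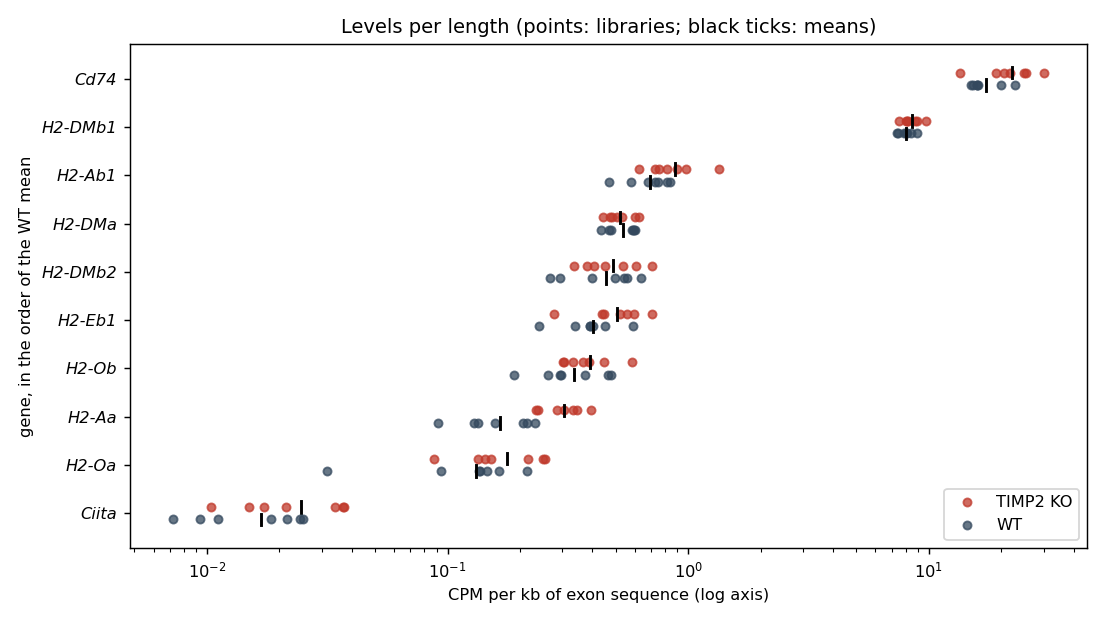
CPM per kb of exon sequence (log axis) of each gene in each library, in the order of the WT mean, with KO above WT in each row and black ticks at the means. Cd74 and H2-DMb1 stand apart at the right, 7 genes overlap their neighbours between 0.132 and 0.694 CPM per kb in WT, and Ciita stands alone at 0.0167.

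The members of 1 complex were thus far from equal. For each unit of H2-Ab1, WT libraries held 17.9 to 33.6 units of Cd74 per length, with a mean of 25.6 ± 6.04 (SD, n = 7), and KO libraries held 14.1 to 40.5, with a mean of 26.7 ± 9.38 (SD, n = 7). The size of this ratio depends on the length used. With the longest transcript as the length, the WT means were 20.5 CPM per kb for Cd74 and 1.47 for H2-Ab1, which lie less far apart. H2-DMb1 exceeded its alpha chain partner H2-DMa 15.3 ± 2.54 times (SD, n = 7) in WT and 16.5 ± 3.02 times (SD, n = 7) in KO. H2-DMb1 also exceeded its neighbour and near copy H2-DMb2, 19.1 ± 5.57 times (SD, n = 7) in WT. H2-Aa encodes the partner of the H2-Ab1 chain, and its level was 0.238 ± 0.0586 (SD, n = 7) of that of H2-Ab1 in WT and 0.361 ± 0.0897 (SD, n = 7) in KO. The ranges of this ratio, 0.163 to 0.338 in WT and 0.212 to 0.486 in KO, overlapped. By the longest transcript, the WT mean was 0.195 CPM per kb for H2-Aa against 1.47 for H2-Ab1, a lower ratio.

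C57BL/6 mice are known to make no E molecule, since their H2-Ea gene is defective, and the annotation lists it as the pseudogene H2-Ea-ps. It had 3 counts over all 14 libraries, and H2-Eb2 had 5. H2-Eb1, the beta chain of the E molecule, was nonetheless counted 20 to 63 times in each library.

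H2-Aa was counted 38 to 60 times per KO library and 15 to 40 times per WT library. Its level had a lowest, median and highest value of 0.885, 1.16 and 1.505 CPM in KO and 0.348, 0.597 and 0.878 CPM in WT. Every KO library was above every WT library, which held for no other of the 15700 genes tested (0.00637%). The margin was small: the lowest KO library, replicate 6 with 38 counts at 0.885 CPM, stood just above the highest WT library, replicate 5 with 40 counts at 0.878 CPM. The log2 fold change was 0.88 (SE 0.202), with an unadjusted p of 0.000597 and an adjusted p of 0.618 over all genes tested with edgeR. DESeq2 alone among the alternatives tried put it past the threshold, at an adjusted p of 0.0499, and the other alternatives gave an adjusted p between 0.228 and 0.996.

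H2-Ab1 had a lowest, median and highest value of 1.61, 2.09 and 3.46 CPM in KO and 1.21, 1.87 and 2.15 CPM in WT. The genotypes overlapped, and KO replicate 7 alone stood at the top. The log2 fold change was 0.34 (SE 0.172, edgeR adjusted p = 0.943), and it was 0.21 without that library. For H2-Eb1, the values were 0.536, 1.01 and 1.38 CPM in KO and 0.464, 0.763 and 1.15 CPM in WT, and replicate 6 was lowest in both genotypes. Its log2 fold change was 0.34 (SE 0.211, edgeR adjusted p = 0.943).

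Cd74 (ENSMUSG00000024610, chr18:60803848-60812652), the invariant chain, had the most counts of the family, from 883 to 2139 per library. Its level was 22.5, 36.3 and 50.5 CPM at the lowest, median and highest of the KO libraries and 25.2, 26.7 and 38.5 CPM in WT. The lowest and the highest of all 14 libraries were both KO, replicates 1 and 3, and WT replicate 5 lay above the KO median. The log2 fold change was 0.36 (SE 0.149), with an unadjusted p of 0.0288 and an adjusted p of 0.943 with edgeR. Astrocyte markers had a median of 48.4 CPM in KO and 86.4 CPM in WT. With their summed level as a covariate, an alternative chosen after seeing the data, the log2 fold change of Cd74 was 0.23 and that of H2-Aa 0.89.

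The peptide exchange genes had log2 fold changes between -0.03 and 0.11. For H2-DMb2, 2 SE on each side span a fold change of 0.79 to 1.46, so equal levels cannot be read there. H2-DMa was at 1.80 ± 0.232 (SD, n = 7) CPM in KO and 1.84 ± 0.251 (SD, n = 7) in WT, with a log2 fold change of -0.03 (SE 0.114) that was 0.06 with the astrocyte covariate and 0.00 without KO replicate 5. Its exons share 360 bases with Brd2, a far more abundant gene on the other strand, and the strand setting of the counting is not given in the sources used here, so part of the reads of H2-DMa may belong to Brd2. H2-DMb1 was the least variable member, at 14.2 ± 1.25 (SD, n = 7) CPM in KO and 13.5 ± 0.878 (SD, n = 7) in WT (log2 fold change 0.08, SE 0.0593, and 0.04 without KO replicate 5). H2-DMb2 was at 0.854 ± 0.234 (SD, n = 7) CPM in KO and 0.795 ± 0.244 (SD, n = 7) in WT, with a log2 fold change of 0.11 (SE 0.223) that was -0.01 without KO replicate 6. The longest transcripts of H2-DMb1 and H2-DMb2 agree at 92.8% of 1196 aligned bases, and 4.14% of the stretches of 150 bases in H2-DMb2 also occur in H2-DMb1, so a share of the reads cannot be told apart.

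Of the inhibitory pair H2-O, H2-Oa was low, while H2-Ob, at 0.336 CPM per kb in WT, stood between H2-Eb1 and H2-Aa. H2-Ob ranged from 1.63 to 3.15 CPM in KO and from 1.02 to 2.58 CPM in WT (log2 fold change 0.21, SE 0.210), and the fold change was 0.09 without KO replicate 7, 0.11 without WT replicate 1, 0.32 without WT replicate 6 and 0.33 with the astrocyte covariate. H2-Oa had 73 counts over the 7 KO libraries and 58 over the 7 WT libraries, between 2 and 16 in each, and did not pass the filter on low counts. Ciita did not pass it either, with 4 to 16 counts per KO library and 3 to 10 per WT library. Its level was 0.0987, 0.204 and 0.353 CPM at the lowest, median and highest in KO and 0.0692, 0.176 and 0.239 CPM in WT, so the genotypes overlapped. Fitted without the filter, its log2 fold change was 0.55 (SE 0.359, edgeR adjusted p = 0.684). Ciita shares 329 exon bases with Dexi on the other strand. At these counts neither equal levels nor a difference of the size seen for H2-Aa can be read from the transactivator.

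**Figure D2:**
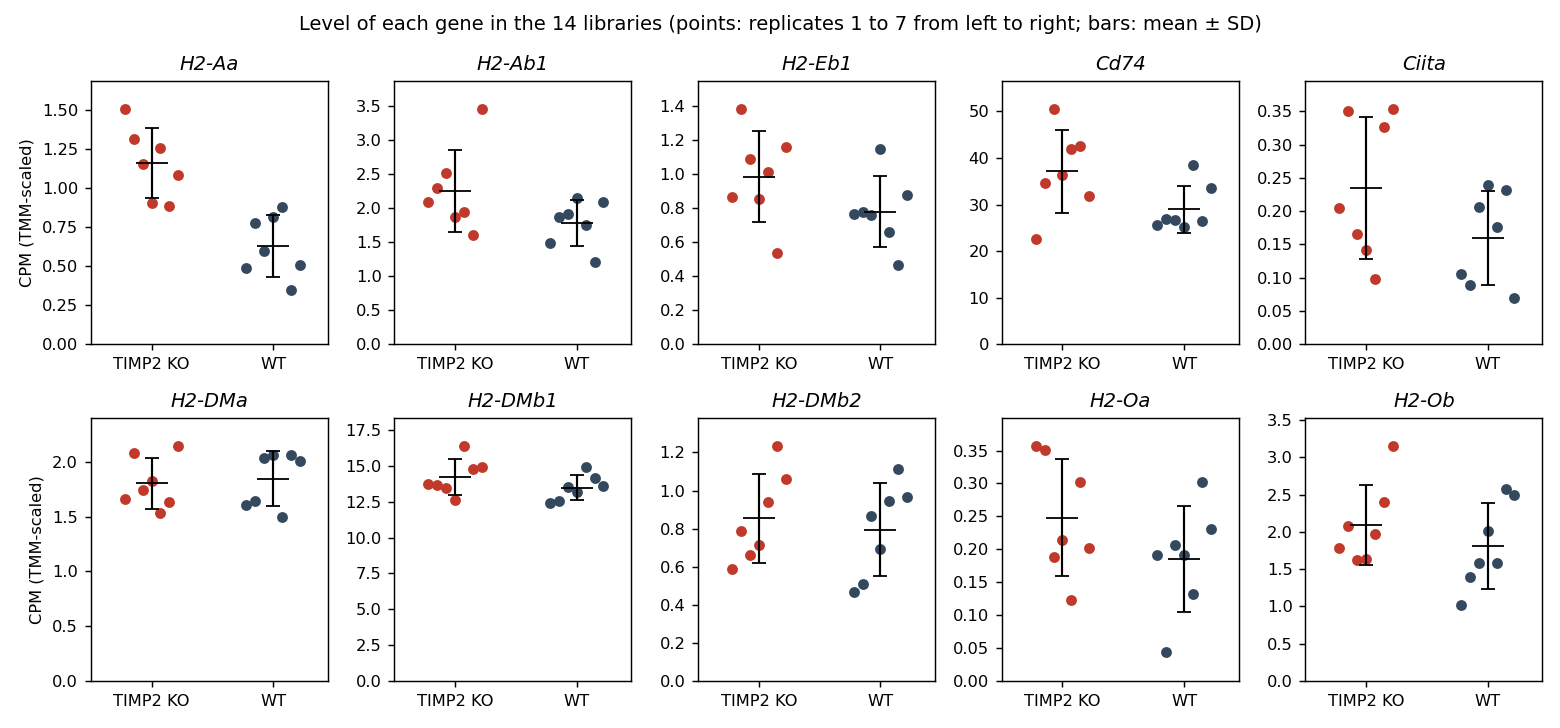
TMM-scaled CPM of each of the 10 genes in the 7 TIMP2 KO and 7 WT libraries, with points in the order of the replicate numbers and bars for the mean ± SD, each axis starting at 0. Only for H2-Aa do the genotypes not overlap, with KO from 0.885 to 1.505 and WT from 0.348 to 0.878.

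Of the 10 members, 8 passed the filter and were tested. With edgeR, 0 of the 8 had an adjusted p under 0.05, where 3 of all 15700 genes did (0.0191%). DESeq2 called 1 of the 8, H2-Aa, where it called 15 of all 15700 genes. H2-Aa and Cd74, 2 of the 8, had both a fold change above 0 and an unadjusted p under 0.05, as did 1.75% of all genes. The fold change was above 0 for 7 of the 8, as it was for 50.8% of all genes, with H2-DMa the exception. The median log2 fold change of the 8 was 0.28, and that of all genes tested 0.00. Since these values were in view when the genes were chosen, nothing is read from the counts. With both libraries numbered 1 left out, an alternative chosen after seeing the data, 0 of the 8 passed with edgeR. There 3 of 15711 genes passed, and 921 had an unadjusted p under 0.05, as did 2 of the 8. The log2 fold change of H2-Aa was 0.75.

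The 224 kb on chromosome 17 hold 12 annotated genes besides the 8 members, of which 7 were tested. All 7 had a log2 fold change above 0, where 50.8% of all genes tested did. The 7 values lay between 0.00 and 0.24 with a median of 0.10. With edgeR as with DESeq2, 0 of these genes were called or had an unadjusted p under 0.05.

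Around the family, 26 tested genes of 4 lists (promoter factors, the interferon gamma route, antigen and invariant chain processing, and surface turnover) were followed, and 0 passed the threshold with edgeR or with DESeq2. At an unadjusted p under 0.05 there were 2 with edgeR, Nfyc and Jak1, and 1 with DESeq2, where 3.37% and 3.60% of all genes were. The 7 promoter factors (the RFX subunits Rfx5, Rfxap and Rfxank, the NF-Y subunits Nfya, Nfyb and Nfyc, and Creb1) had log2 fold changes between -0.02 and 0.07. Rfx5, whose product binds the X box, was at 12.2 ± 1.15 (SD, n = 7) CPM in KO and 12.2 ± 0.715 (SD, n = 7) in WT. Nfyc had the smallest p of this list (log2 fold change 0.07, SE 0.0322, edgeR adjusted p = 0.943), ahead of Rfxank at 0.06, Creb1 at 0.03 and Rfxap at -0.02.

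Of the interferon gamma route to Ciita, Ifng itself had 0 counts in every library. The 7 other genes of the list, among them the receptor chains Ifngr1 and Ifngr2, the kinases Jak1 and Jak2, the transcription factor Irf1 and the feedback inhibitor Socs1, were all above 0 in log2 fold change, with a median of 0.08. Of all genes tested 50.8% were above 0, and nothing is read from this count. Jak1 had 285 ± 8.75 (SD, n = 7) CPM in KO and 274 ± 5.45 (SD, n = 7) in WT (log2 fold change 0.06, SE 0.0239, edgeR adjusted p = 0.943). The log2 fold change was 0.07 for Jak2 and 0.16 for Socs1.

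The 9 genes of antigen and invariant chain processing were 6 above and 3 below 0, between -0.05 and 0.09 in log2 fold change. Ctss, the cathepsin that trims the invariant chain, was at 2626 ± 293 (SD, n = 7) CPM in KO and 2465 ± 112 (SD, n = 7) in WT (log2 fold change 0.09, SE 0.0623). The others nearest to a difference were Ctsh at 0.07, Ifi30, a lysosomal thiol reductase, at 0.04 and Ctsb at -0.03. Of the genes that set how long class II stays on the surface, the ubiquitin ligases March1 and March8 were at 0.07 and 0.00, and Cd83, which opposes March1, at -0.04.

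**Figure D3:**
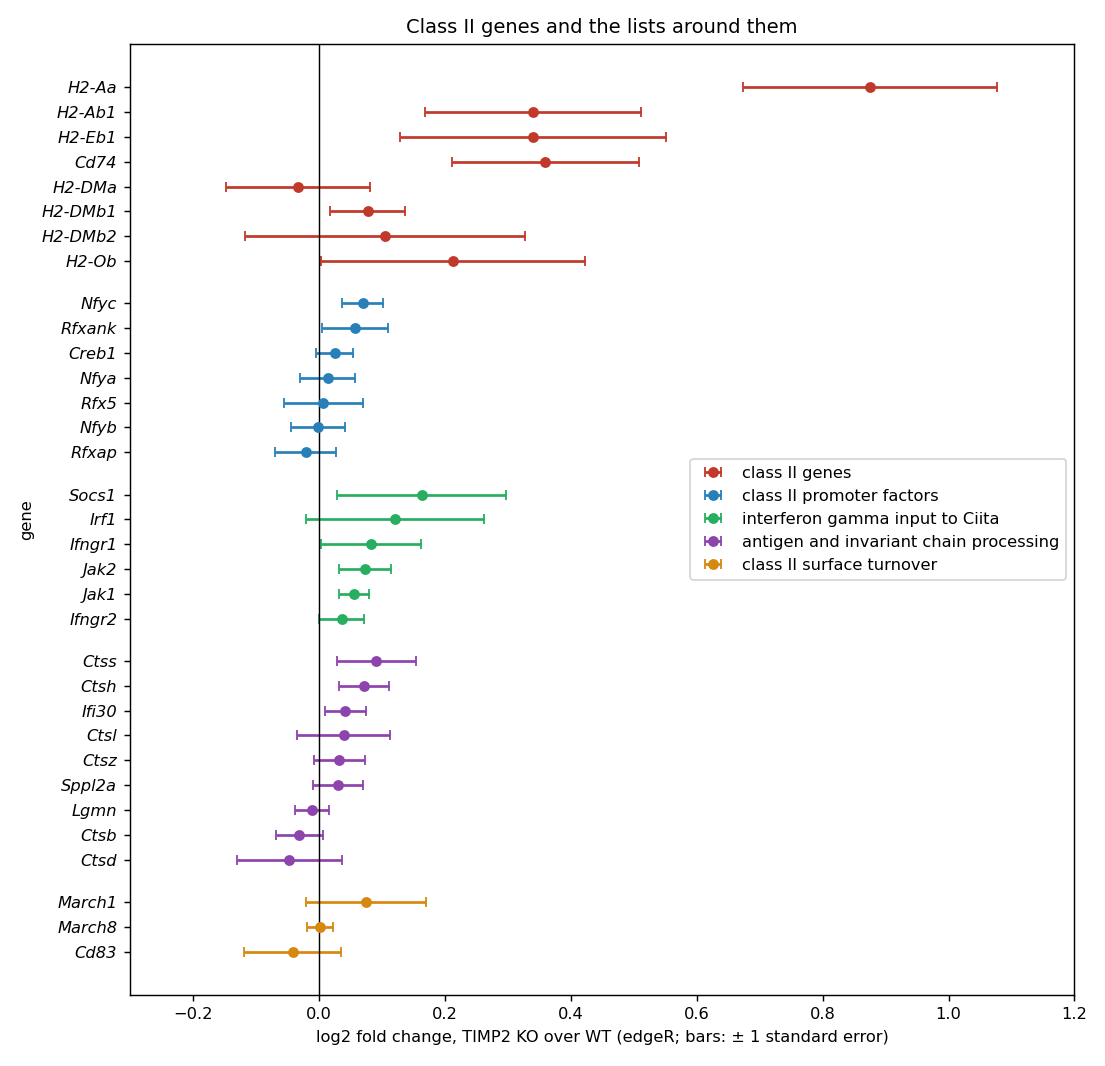
Log2 fold change of TIMP2 KO over WT (edgeR) with 1 standard error on each side, for the 8 class II genes tested and for genes of the lists around them. The values of the list genes shown lie between -0.05 and 0.16, while H2-Aa is at 0.88 and Cd74, H2-Ab1 and H2-Eb1 lie between 0.34 and 0.36.

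The spread of each member between cultures of the same genotype was set beside the spread that counting alone gives, which separate pools commonly exceed, and the excess was not tested. The coefficient of variation within genotype was 20.9% for Cd74, where the number of counts alone gives 2.64%, and 29.0% for H2-Ob, where it gives 10.9%. For H2-DMb1 it was 7.71% against 4.08%, and for H2-DMa 13.2% against 11.2%, the smallest excess. For H2-Aa (26.0% against 16.2%), H2-Ab1 (23.2% against 10.7%), H2-Eb1 (26.98% against 16.2%) and H2-DMb2 (29.1% against 16.8%) the spread was also above that of counting. For H2-Oa it was 39.9%, where counting gives 32.7%, and for Ciita it was 45%, where counting gives 34.3%.

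Whether the genes of the family share this variation was asked with the deviations of log2 CPM from the genotype mean, which do not use the difference between KO and WT. Of the 28 pairs of tested members, 3 passed an adjusted p of 0.05 by permutation within genotype, and all 3 were positive. H2-Ab1 and H2-Eb1, the beta chains of A and E, had r = 0.778 over 14 libraries (rho = 0.780, permutation p = 0.00261 for r and 0.00208 for rho, adjusted p = 0.0362 for r). The r was 0.711 within KO and 0.869 within WT, and 0.772 without the 2 libraries farthest from the median of H2-Ab1, where the pair did not pass (adjusted permutation p = 0.109). Of 15699 other genes, only 2 had a higher r with H2-Ab1 than H2-Eb1 did. Replicate 6 was lowest in both genes in both genotypes.

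H2-DMb2 and H2-Ob, a chain of the exchange factor and a chain of its inhibitor, had r = 0.800 (rho = 0.846, permutation p = 0.00137 for r and 0.000440 for rho, adjusted p = 0.0362 for r), with 0.783 within KO and 0.811 within WT. H2-DMb1 and H2-DMb2 had r = 0.728 (rho = 0.776, permutation p = 0.00388 for r and 0.00278 for rho, adjusted p = 0.0362 for r), and the bases they share can add to it, which was not tested. Without the 2 farthest libraries, r was 0.657 for H2-DMb2 and H2-Ob, which did not pass (adjusted permutation p = 0.182), and 0.868 for H2-DMb1 and H2-DMb2, which did (adjusted permutation p = 0.0283). H2-Ob was the 72nd gene by r with H2-DMb2, and H2-DMb2 the 637th by r with H2-DMb1.

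The adjusted values of these 3 pairs were near the threshold. Leaving out KO replicate 3 or WT replicate 1, 2, 3, 4, 6 or 7 left 0 of the 28 pairs past it, with 3 to 6 at an unadjusted p under 0.05, and leaving out any other library left 2 or 3. Over these fits the r of H2-Ab1 and H2-Eb1 was 0.698 to 0.843, that of H2-DMb2 and H2-Ob 0.723 to 0.847 and that of H2-DMb1 and H2-DMb2 0.690 to 0.818. Libraries of the same number could lie near each other: replicate 1 was lowest and replicate 6 highest in H2-DMb2 in both genotypes. Endothelial and mural markers summed to 35.5 to 47.9 CPM in replicates 1 to 4 of both genotypes and to 52.4 to 64.9 CPM in replicates 5 to 7. With the replicate number taken out as a block, 0 of the 28 pairs passed by exact permutation (4 at an unadjusted p under 0.05), and r was 0.488 for H2-Ab1 and H2-Eb1, 0.573 for H2-DMb2 and H2-Ob and 0.540 for H2-DMb1 and H2-DMb2. With genotype and the split between replicates 1 to 4 and 5 to 7 both taken out, an alternative chosen after seeing the data, these r were 0.808, 0.584 and 0.164, and none of these 3 pairs passed (adjusted permutation p of 0.169, 0.410 and 0.950). The labels give no batch.

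H2-Aa went with H2-Eb1 (r = 0.542, rho = 0.389, permutation p = 0.0482 for r and 0.185 for rho) and with H2-Ab1 (r = 0.483, rho = 0.468, permutation p = 0.0804 for r and 0.111 for rho), but neither pair passed adjustment (adjusted p = 0.270 and 0.321). Without WT replicate 6, these r were 0.329 and 0.250. H2-DMa and H2-Ob had r = 0.613 (rho = 0.587, permutation p = 0.0301 for r and 0.0375 for rho, adjusted p = 0.210), and 0.893 with the split taken out (adjusted permutation p = 0.0246). The r of Cd74 was -0.03 with H2-Ab1, -0.09 with H2-Aa and -0.10 with H2-Eb1, with permutation p of 0.923, 0.751 and 0.743. With H2-Aa, it was -0.51 within KO and 0.30 within WT. Over single libraries left out, it ran from -0.33 (without WT replicate 5) to 0.20 (without KO replicate 1). Of all 28 pairs, 15 had an r above 0. Cd74 was in none of the 3 pairs that passed.

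**Figure D4:**
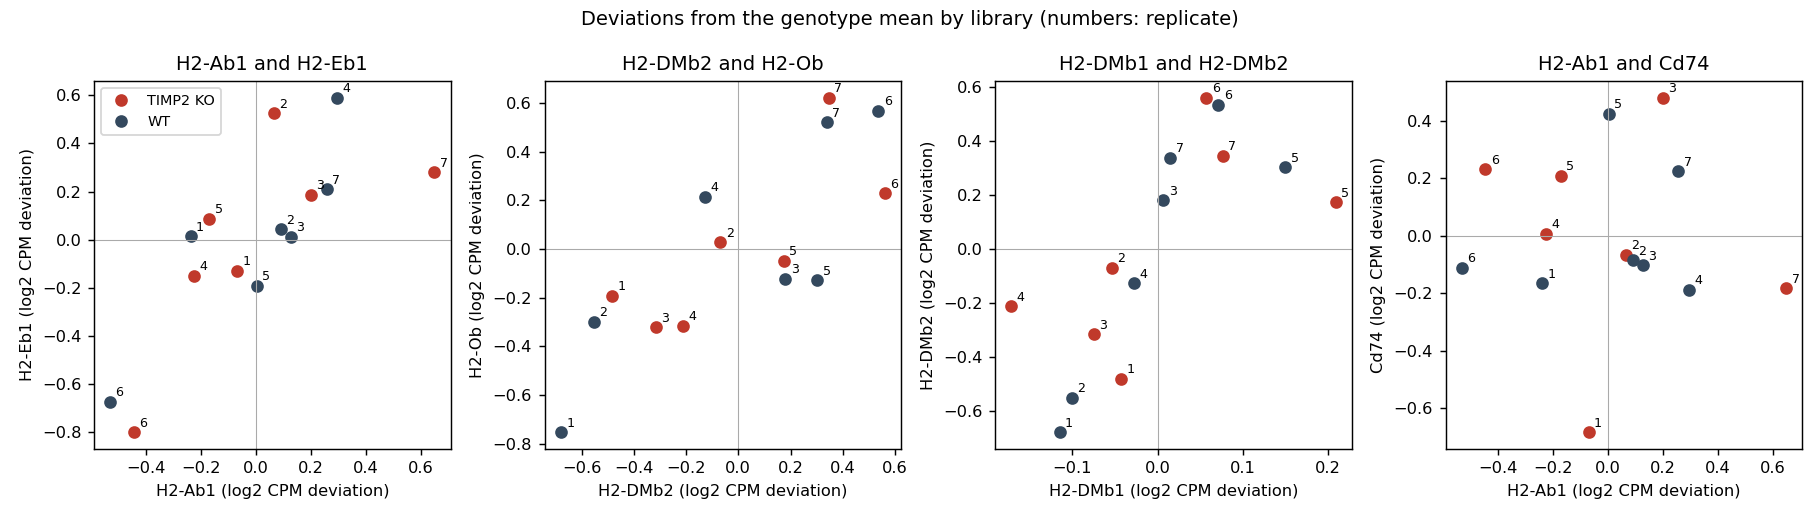
Deviation of log2 CPM from the genotype mean in each of the 14 libraries for 4 pairs of genes, with the replicate number beside each point. The points rise together for H2-Ab1 and H2-Eb1 (r = 0.778), H2-DMb2 and H2-Ob (r = 0.800) and H2-DMb1 and H2-DMb2 (r = 0.728), and form no line for H2-Ab1 and Cd74 (r = -0.03).

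The same deviations were set against the summed marker levels of 7 other cell types, 56 combinations in all, of which 5 passed an adjusted p of 0.05 by Pearson's r and 0 by rho (13 by rho at an unadjusted p under 0.05). H2-DMa fell where border-associated macrophage markers were high (r = -0.831, rho = -0.837, permutation p = 0.00128 for r and 0.00108 for rho, adjusted p = 0.0358 for r and 0.0582 for rho). It rose with astrocyte markers (r = 0.773, adjusted permutation p = 0.0405) and with monocyte markers led by Vcan and Ccr2 (r = 0.765, adjusted permutation p = 0.0405), with rho of 0.758 and 0.780. The monocyte list summed to only 3.53 to 12.3 CPM, and 2 of its 6 genes passed the filter on low counts. Replicates 7 in KO and 4 in WT were highest, and replicate 5 was lowest in both genotypes, in the monocyte and the astrocyte list alike. Whether these results of H2-DMa are separate was not tested. H2-DMb1 rose with endothelial and mural markers led by Flt1 and Kdr (r = 0.739, rho = 0.675, adjusted permutation p = 0.0405 for r). H2-DMb2 fell with the T and NK list (r = -0.771, rho = -0.719, adjusted permutation p = 0.00952 for r), whose level is nearly all Cd4, since 6 of its 7 genes, Klrb1c among them, had under 3 counts on average, and which stood apart in both libraries numbered 1. Leaving out single libraries left 0 to 8 combinations past the threshold, with 0 without WT replicate 6, 1 without WT replicate 3, 4 or 5 or KO replicate 5 or 7, 2 without KO replicate 2, 3 or 6 and 8 without WT replicate 1. Without the 2 libraries farthest from the median of each list, r was -0.853, 0.706, 0.606, 0.671 and -0.637 in the order of these 5 pairs, and only the first passed (adjusted permutation p = 0.0174, against 0.325 for each of the others). Without both libraries numbered 1, the 3 of H2-DMa passed, and those of H2-DMb1 and H2-DMb2 did not (adjusted permutation p = 0.062 and 0.231). None of the 5 passed with the replicate block or with the split of replicates taken out. With the block, r was -0.843, 0.704, 0.685, -0.543 and -0.625 in the same order (adjusted exact permutation p of 0.129, 0.234, 0.234, 0.338 and 0.299), and with the split it was -0.835, 0.824, 0.838, -0.207 and -0.734 (adjusted permutation p of 0.823 for H2-DMb1 and 0.0817 for the others).

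For Cd74, 0 of 7 combinations with a marker list passed adjustment, and 3 had an unadjusted permutation p under 0.05 by r. Its r was 0.640 with border-associated macrophage markers (rho = 0.692, adjusted permutation p = 0.0655 for r and 0.0582 for rho) and -0.640 with astrocyte markers (rho = -0.670, adjusted permutation p = 0.0655 for r and 0.0798 for rho). Without the 2 farthest libraries these were 0.372 and -0.631. The part of other cell types in the level of any member was not tested beyond these values.

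**Figure D5:**
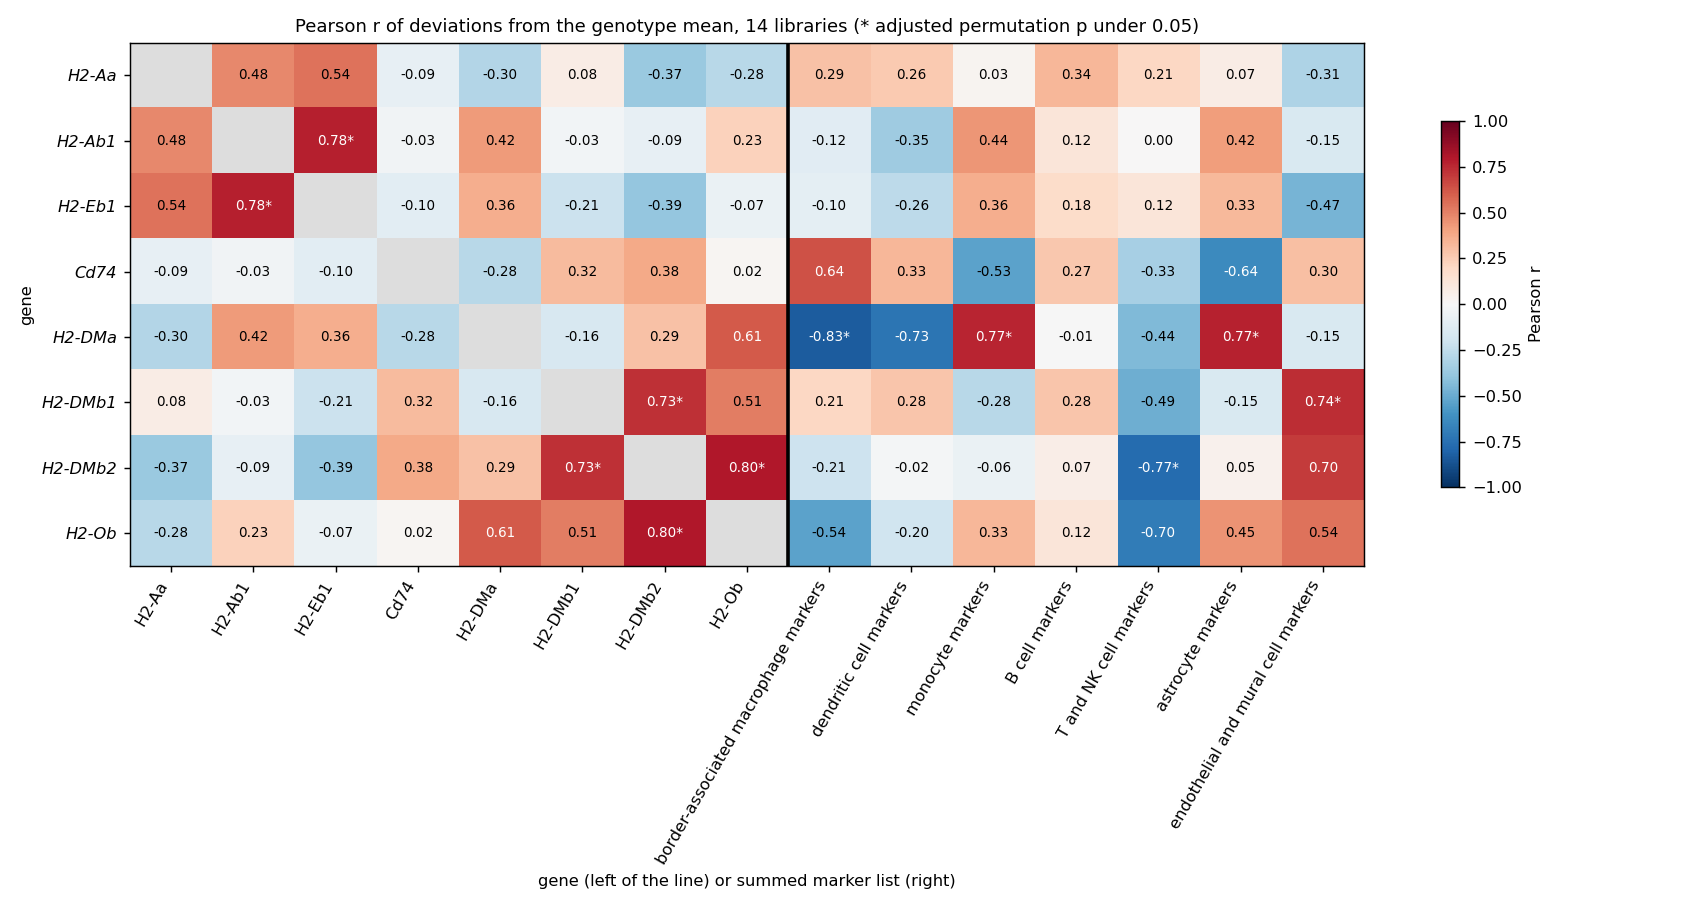
Pearson r of the deviations from the genotype mean over 14 libraries for each pair of the 8 tested genes (left of the line) and for each gene with the summed level of 7 marker lists (right), with a star where the adjusted permutation p was under 0.05. Stars mark 3 pairs of genes and 5 combinations with a list, 3 of which are in the row of H2-DMa.

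Outside the family, the genes most like the 3 chains and Cd74 were sought by the mean of their 4 r values among 12634 genes with at least 1 CPM. Ctso, which encodes a cathepsin, led with a mean r of 0.560, and 0.384 to 0.649 with the single genes. Ftx (0.540), Ptk2 (0.535), Ddx41 (0.533) and Ece1 (0.522) followed. Their r with Cd74 alone was 0.09, 0.26, 0.23 and 0.52, in this order. These genes were picked for their high r, which is given as a description.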

How the data were processed

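RNA was measured in 14 libraries, grouped by the genotype and replicate number in their labels. The authors deposited raw counts per Ensembl gene, and the submitters' processing notes name Trimmomatic 0.36, STAR 2.5.2b, featureCounts of Subread 1.5.2, DESeq2 and GRCm38. Poly(A) libraries were sequenced as paired-end reads. Strand setting and annotation release are not given in the sources used here, and the batch of each library was not used.

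Symbols came from GENCODE M21 (49056 of 49315 genes matched). Genes were filtered with filterByExpr (minimum count 10, total 15), scaled by TMM and tested with edgeR 4.0.16 (R 4.3.3) by quasi-likelihood, two-sided, Benjamini-Hochberg over 15700 genes. Intervals and errors cover the spread between pools. DESeq2 1.42.0 was an alternative, as were other scalings and filters, the replicate block and leaving out each library. Correlations used log2 CPM (prior count 1), 100000 permutations within genotype and Benjamini-Hochberg over 28 or 56 combinations, in Python 3.11.15 with numpy 2.4.6. Both methods were also run on simulated data, and the outcome of these runs is not given here. Aligned transcripts were compared with Biopython 1.88.

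Members and lists were chosen with earlier results of these data known. Named in the text were all members, Timp2, all genes of a list of up to 5 or the 4 of smallest p, the 2 most abundant markers per list, and the 5 genes of highest mean r, except some that are not reported here. Rfx5, Nfya, Nfyb, Ifngr1, Ifngr2 and Irf1 were added when the lists were described, and markers under 3 counts were added after their values were seen.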

Additional observations from a re-analysis of the deposited data

Results flagged for a closer look

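The 10 genes and 8 marker lists gave 36 groups of 7 libraries, in which the highest and lowest library were compared with the rest, a check that chance flags in about 1 of 20 groups. In no member did a library stand far from its group. For the T and NK cell list, KO replicate 1 was at 5.05 CPM, with the next KO library at 2.74, and WT replicate 1 was at 6.25 CPM, with the next WT library at 1.49. Most of this level is Cd4. The same libraries had the lowest summed microglial markers of their genotype, 9619 CPM in KO and 9233 CPM in WT. Cd74 was at 22.5 CPM there in KO, the lowest of the genotype, and at 25.5 CPM in WT, where replicate 4 was lower at 25.2 CPM, and H2-DMb2 was the lowest of its genotype in both. A cause was not tested.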

How the results depend on the processing

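Of 189 refits of a member's log2 fold change, 185 kept direction and side of the threshold. H2-Aa was past it with DESeq2 (adjusted p = 0.0499, 1 member called), and 3 turned in sign: H2-DMa without KO replicate 5 (-0.0779 to 0.0028 over single libraries left out) and with the astrocyte covariate (0.0633), and H2-DMb2 without KO replicate 6 (-0.0068 to 0.2036). The number of genes called was 3, but 15 with DESeq2 and 26 with DESeq2 and the replicate block, and 3 to 4 with single libraries left out. Members at an unadjusted p under 0.05 numbered 2, but 1 with a minimum of 1 CPM in 7 libraries, where H2-Aa was left out, 3 with the replicate block, and 1 to 3 with single libraries left out. Over all genes the number was 529 of 15700, 436 of 12619 with that minimum and 921 of 15700 with the block. With single libraries left out it was 377 to 999. Pairs of members past the threshold numbered 3, but 1 without the 2 farthest libraries, 0 without both libraries numbered 1 and 0 to 3 with single libraries left out. Combinations with marker lists numbered 5, but 0 by rho, 1 without the 2 farthest libraries and 0 to 8 with single libraries left out. The cause was not tested.

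Replicate numbers were not shown to pair the libraries, and pairing was not excluded: 3 of 7 same-numbered deviations had r over 0.1 and 3 of 14 libraries correlated best with their own number, but scores of KO and WT by number had r of 0.896 and 0.868 on principal components 3 and 4 (9.10% and 6.58% of the variance), and 0.160 and 0.0719 on components 1 and 2. With the replicate block, 0 pairs and 1 combination (H2-DMb1 with astrocyte markers) passed (exact permutation of 7 differences), and with the split of replicates 1 to 4 from 5 to 7, added after seeing the data, 1 pair (H2-DMa and H2-Ob) and 3 combinations of H2-Ob. None of the 3 pairs and 5 combinations of the report was among them, and r of H2-DMb1 with endothelial and mural markers turned to -0.5434 and -0.2066. The block and the split left 0 members called with edgeR, H2-Aa at 0.90 and 0.88. Counts of 2 to 16 limit Ciita and H2-Oa.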
